A study of Populus ussuriensis with 18 samples.

Results

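Phenylalanine ammonia-lyase, PAL, takes the amino group off phenylalanine and gives cinnamic acid, the entry step of phenylpropanoid synthesis. Its 5 loci were followed over the first days in the lower end of cut poplar stems. They were chosen as the Populus trichocarpa loci known as PAL1 (Potri.006G126800), PAL2 (Potri.008G038200), PAL3 (Potri.016G091100), PAL4 (Potri.010G224100) and PAL5 (Potri.010G224200), 5 of 36385 loci listed. All 5 were among the 26765 loci that passed a filter on low values. The names come from that choice, since the files pair no identifier with a gene name.

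The RNA came from Populus ussuriensis, a poplar of north-east Asia. Plants 2 weeks old had grown in vitro at 25 °C on Murashige and Skoog medium with 20 g/L sucrose, with a daily 16 h light and 8 h dark period, which all groups share. Stems were cut, and their basal 0.5 cm was harvested after 0, 0.5, 1, 2, 6, 12, 24, 48 or 96 h, with 2 libraries of total RNA for each of the 9 times. No genotype, clone or added hormone is given in the labels, and no uncut tissue was labelled as a control for the later hours.

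Cinnamic acid feeds the monolignols, from which lignin is built, and also flavonoids, tannins, salicylates and other phenolics. PAL transcripts and enzyme are known to rise after wounding and after attack by pathogens in many plants. In P. trichocarpa, PAL1 and PAL3 resemble each other most closely and form one group of sequences, while PAL2, PAL4 and PAL5 form another, known for its high level in wood-forming tissue. No sequence is shown, since none was used here.

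Levels are FPKM, read numbers scaled to the length of the transcript and to the depth of the library, summed over the listed transcripts of a locus, so they can be compared between loci. The reads were those of P. ussuriensis and the identifiers those of P. trichocarpa. What this does to the levels was not tested. PAL4 and PAL5 carry neighbouring locus numbers, and reads from near-identical copies may have been split between them, so their separate levels are uncertain. The same may hold for PAL1 and PAL3, which resemble each other closely, and this was not tested. Nothing in the labels ties the 2 libraries of a time to separate plants, so every p-value measures the spread between libraries alone, and that spread may be a technical one. In a piece of stem, fewer cells of a type and less RNA per cell cannot be told apart.

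The 16 libraries after cutting held between 28460172 and 30651830 reads, recovered from the steps in the FPKM values and stated for single reads. PAL1 was covered by 11591 to 36004 reads per library, PAL2 by 3231 to 14801, PAL3 by 5554 to 34898, PAL4 by 5025 to 11222 and PAL5 by 666 to 2191. The counting error was largest for PAL5, at most 3.87% of a level, and this covers counting error only. The tables of the 2 libraries at 0 h differ in kind from the others, with 38.1% and 38.5% of transcripts at 0 against 8.89% to 10.7% later. Every comparison with 0 h therefore mixes time with the kind of table, and these cannot be told apart. The results below start with the hours after cutting, and 0 h follows at the end. The labelled tissue was not checked against marker genes, because the files name none.

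The family as a whole was highest 2 h after cutting. The summed level was 541 and 490.1 FPKM in the libraries of 0.5 h, 676 and 867 in those of 1 h and 1205 and 1258 in those of 2 h. It was 689 and 654 FPKM in the libraries of 6 h, 727 and 513 in those of 12 h, 814 and 762 in those of 24 h, 782 and 599 in those of 48 h and 544 and 503 in those of 96 h. Both libraries at 2 h stood above all other libraries, and those at 96 h lay close to those at 0.5 h. The mean sum went from 516 ± 36.3 FPKM (SD, n = 2) at 0.5 h to 1232 ± 37.9 (SD, n = 2) at 2 h, a factor of 2.39.

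**Figure D1:**
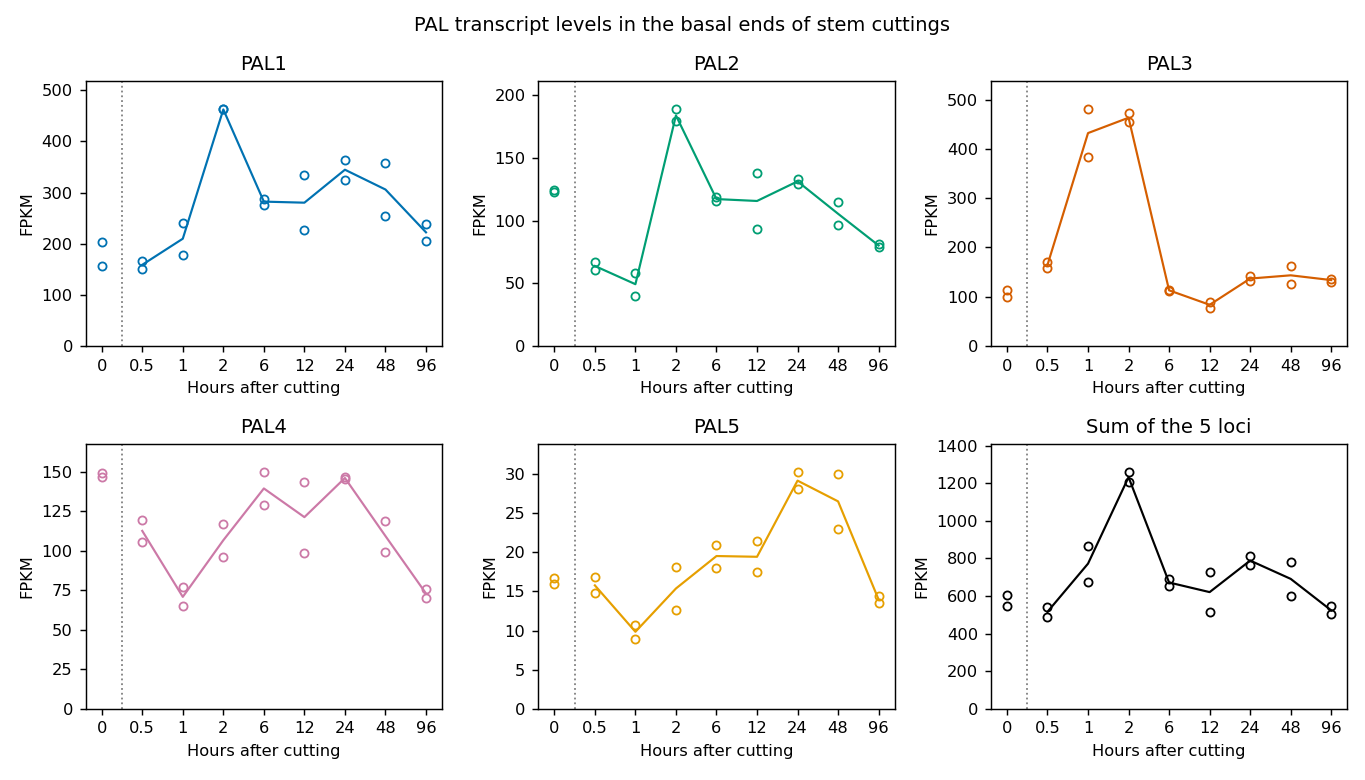
Level in FPKM (vertical axis, from 0) by time after cutting in h (horizontal axis) for PAL1 to PAL5 and their sum, each point 1 library and the line the mean of the libraries after cutting. A dotted line sets off the 0 h libraries, whose tables differ in kind; the sum peaked at 2 h at 1205 and 1258 FPKM, and PAL3 had dropped to 114 and 112 FPKM by 6 h.

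PAL3 had a short early peak. It was listed at 171 and 158 FPKM in the libraries of 0.5 h, 384 and 480.0 in those of 1 h and 454 and 472 in those of 2 h. It was then at 114 and 112 FPKM in the libraries of 6 h, 90.3 and 77.2 in those of 12 h, 142 and 132 in those of 24 h, 162 and 125 in those of 48 h and 137 and 131 in those of 96 h. The 4 libraries of 1 and 2 h stood above the other 12 after cutting, with no overlap. Its highest mean, at 2 h, was 5.53 times its lowest, at 12 h, the widest range of the 5 members.

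PAL1, its closest relative, was highest at 2 h. It was at 167 and 151 FPKM in the libraries of 0.5 h, 178 and 241 in those of 1 h and 463 in both libraries at 2 h. It was at 288 and 276 FPKM in the libraries of 6 h, 334 and 227 in those of 12 h, 364 and 326 in those of 24 h, 357 and 255 in those of 48 h and 238 and 206 in those of 96 h. Unlike PAL3, PAL1 stayed above its 0.5 h level in all libraries from 6 h to 96 h. The mean at 2 h was 2.91 times that at 0.5 h.

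PAL2 was lowest at 1 h before the same peak, although its fall from 0.5 to 1 h did not pass (limma adjusted p 0.0820). Its level was 66.8 and 61.0 FPKM in the libraries of 0.5 h, 40.1 and 58.5 in those of 1 h and 179 and 189 in those of 2 h. It was 116 and 119 FPKM in the libraries of 6 h, 138 and 93.0 in those of 12 h, 133 and 129 in those of 24 h, 115 and 96.4 in those of 48 h and 78.7 and 81.7 in those of 96 h. The 2 libraries of 1 h were the lowest of the 16 and those of 2 h the highest, a factor of 3.73 between the means. Both listed transcripts of PAL2 took part, since the ratio of the second to the first stayed between 0.748 and 0.911 in the 16 libraries.

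PAL4 had no peak at 2 h. It was at 119.6 and 105 FPKM in the libraries of 0.5 h, 64.8 and 76.7 in those of 1 h and 96.0 and 117 in those of 2 h. It was at 149.6 and 129 FPKM in the libraries of 6 h, 144 and 98.7 in those of 12 h, 147 and 145 in those of 24 h, 119 and 99.4 in those of 48 h and 75.6 and 70.2 in those of 96 h. The low libraries were those of 1 h and 96 h, which overlapped each other and lay below all others after cutting. Its means spanned a factor of 2.06, the narrowest range of the 5.

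PAL5 was the lowest member in all 18 libraries. It was at 16.8 and 14.8 FPKM in the libraries of 0.5 h, 8.97 and 10.7 in those of 1 h and 12.6 and 18.1 in those of 2 h. It was at 21.0 and 18.05 FPKM in the libraries of 6 h, 21.4 and 17.5 in those of 12 h, 28.1 and 30.2 in those of 24 h, 29.97 and 23.0 in those of 48 h and 14.4 and 13.6 in those of 96 h. The 4 libraries of 24 and 48 h stood above the other 12, and both libraries of 1 h below them. The mean at 24 h was 2.96 times that at 1 h.

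The order of the members changed with time. PAL3 led in both libraries at 0.5 h and at 1 h, and in 1 of 2 at 2 h, when PAL1 and PAL3 had means of 463 ± 0.0214 and 463 ± 12.3 FPKM (SD, n = 2) and did not differ beyond their spread. PAL1 led in every other library, including those of 0 h. PAL3 made up 31.9% of the summed FPKM at 0.5 h and 56.1% at 1 h. Its share was 37.6% at 2 h, had dropped to 13.7% by 12 h and stood at 25.6% after 96 h. PAL1 had its lowest share at 1 h, 27.1%, and its highest at 12 h, 45.0%. PAL2 fell to a share of 6.34% at 1 h and PAL4 to 8.64% at 2 h, against 18.6% and 19.5% at 12 h, while PAL5 never held more than 3.84% on average. PAL1 and PAL3 together held 83.2% in both libraries of 1 h.

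**Figure D2:**
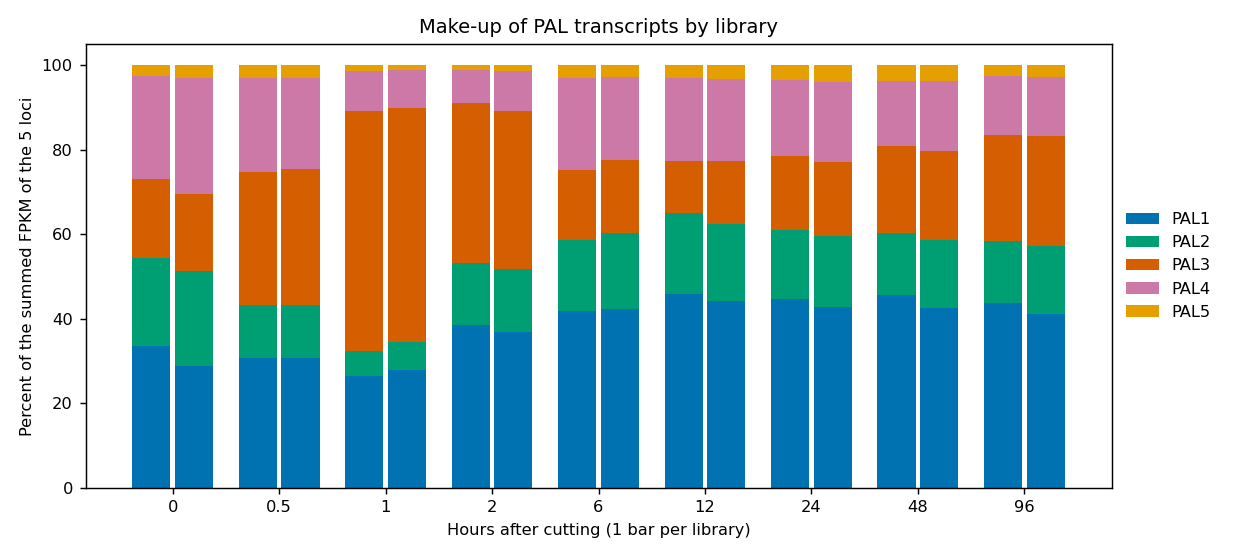
Share of the summed PAL level (vertical axis, % of FPKM) held by each of the 5 members, 1 bar for each of the 18 libraries in order of time. PAL3 widened to 56.1% on average at 1 h and narrowed to 13.7% at 12 h, when PAL1 held 45.0%.

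All 5 members changed over the 8 times after cutting by limma's F test on log2(FPKM + 1) with Benjamini-Hochberg adjustment over all loci, and so did 91.3% of all loci tested. At that background the count is not a result about the family. The adjusted p from this test was 2.07e-09 for PAL3, 1.85e-06 for PAL2, 1.31e-05 for PAL5, 0.000123 for PAL1 and 0.000126 for PAL4. PAL3 was among the 6.05% of loci with the smallest p.

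Steps between neighbouring times show when each member moved. Each is a difference of means in log2(FPKM + 1) with its standard error from limma, and each adjusted p is a two-sided Benjamini-Hochberg value over all loci, with a threshold of 0.05. In sentences where 2 members moved alike their values are in the order of the names.

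From 0.5 to 1 h PAL3 rose, and PAL4 and PAL5 fell. PAL3 rose by 1.38 ± 0.13 (limma adjusted p 2.43e-06), and 2.62% of all loci were up by as much or more. PAL4 fell by 0.66 ± 0.16 (adjusted p 0.00408) and PAL5 fell by 0.63 ± 0.16 (adjusted p 0.00611), although the PAL5 call was lost without library 1 of 0.5 h (adjusted p 0.0519) or library 1 of 1 h (adjusted p 0.0588). PAL1 differed by 0.38 ± 0.20 (adjusted p 0.132) and PAL2 by -0.39 ± 0.17 (adjusted p 0.0820), neither of which passed. Thus 1 member rose and 2 fell, where 13.9% of all loci rose and 30.3% fell, and the median of all loci lay at -0.16.

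From 1 to 2 h 4 members rose, all but PAL3, against 20.8% of all loci. PAL2 rose by 1.90 ± 0.17 (limma adjusted p 2.31e-06), and 0.643% of loci were up by as much or more. PAL1 rose by 1.15 ± 0.20 (adjusted p 0.000443), and 2.79% of loci were up by as much or more. PAL4 and PAL5 each rose by 0.58 ± 0.16 (adjusted p 0.0111 and 0.0124), but both calls were lost without library 1 of 1 h (adjusted p 0.108 and 0.112) and without library 2 of 2 h (adjusted p 0.114 and 0.177). PAL3 differed by 0.11 ± 0.13 (adjusted p 0.574).

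From 2 to 6 h the members that had peaked fell. PAL3 fell by 2.02 ± 0.13 (limma adjusted p 2.33e-08), and 1.89% of loci were down by as much or more. PAL1 fell by 0.71 ± 0.20 (adjusted p 0.00764) and PAL2 fell by 0.64 ± 0.17 (adjusted p 0.00587), so 3 of 5 fell against 18.3% of all loci. PAL4 and PAL5 differed by 0.39 and 0.34 upwards and did not pass (adjusted p 0.0571 and 0.0935). Both passed without library 2 of 2 h, at 0.53 and 0.59, so that 5 of 5 changed. The falls of PAL1, PAL2 and PAL3 passed under every alternative run.

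Between 6 and 24 h the changes were smaller. From 6 to 12 h PAL3 fell, by 0.43 ± 0.13 (limma adjusted p 0.0302), against 9.61% of all loci. That call was lost in a fit of the 4 compared libraries alone (adjusted p 0.0627), and without library 1 of 6 h (0.141), library 2 of 6 h (0.0840) or library 2 of 12 h (0.226), while PAL4 passed too, at -0.49, without library 1 of 12 h. From 12 to 24 h PAL3 rose by 0.71 ± 0.13 (adjusted p 0.00203) and PAL5 by 0.57 ± 0.16 (adjusted p 0.0245), 2 of 5 against 8.80% of all loci. The PAL5 call was lost without library 2 of 12 h (0.179), library 1 of 24 h (0.0673) or library 2 of 24 h (0.139).

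After 24 h the members that changed fell. From 24 to 48 h limma called 0 of 5, where 5.07% of all loci changed, and limma-voom on the recovered reads also called 0. At an unadjusted p under 0.05 only PAL4 passed, with a difference of -0.42 (p 0.0202, adjusted p 0.181 by limma). From 48 to 96 h PAL5 fell by 0.87 ± 0.16 (adjusted p 0.00119) and PAL4 fell by 0.57 ± 0.16 (adjusted p 0.0158), 2 of 5 against 9.78% of all loci. The PAL4 call was lost without library 1 of 48 h (adjusted p 0.133) or library 2 of 96 h (adjusted p 0.106). PAL1 differed by -0.44 and PAL2 by -0.39 (adjusted p 0.112 each), and PAL3 by -0.09 (adjusted p 0.668).

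**Figure D3:**
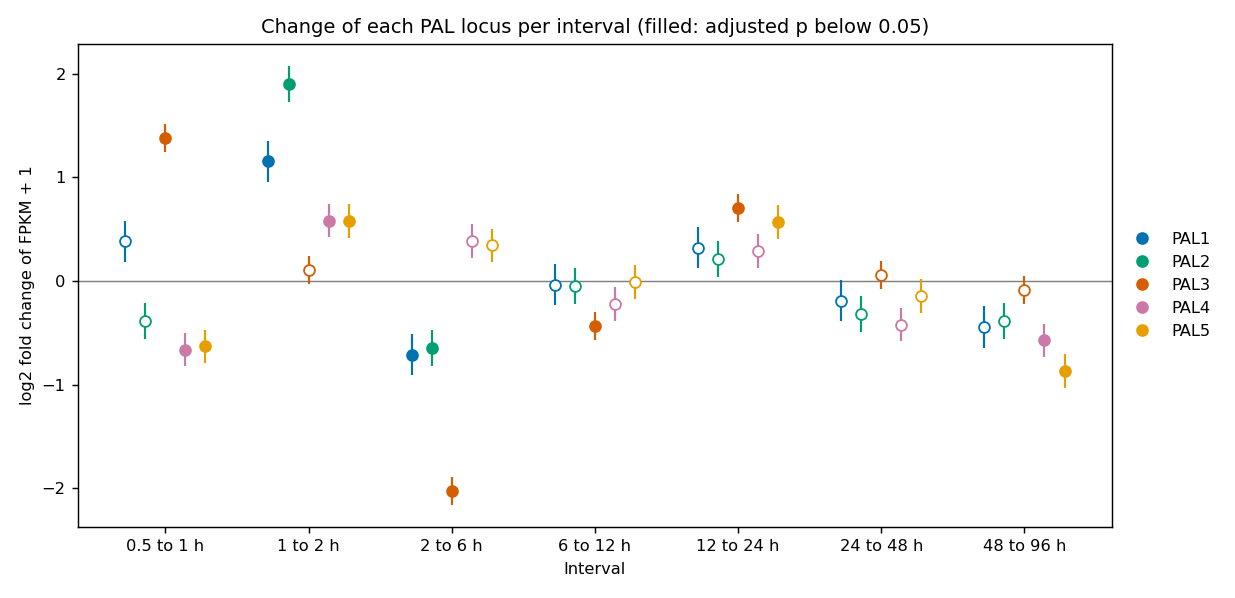
Difference in mean log2(FPKM + 1) with its standard error (vertical axis) for each of the 7 steps between neighbouring times after cutting (horizontal axis), by member, with filled points for a limma adjusted p under 0.05. PAL3 rose by 1.38 from 0.5 to 1 h, a step before PAL1 (1.15) and PAL2 (1.90), and fell by 2.02 from 2 to 6 h.

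Libraries of one time moved together in some cases. Library 1 was the higher for all 5 members at 0.5, 12 and 48 h, and library 2 for all 5 at 1 and 2 h. The widest gap of a member was 0.57 on the log2 scale at 12 h, while 43.6% to 55.4% of all loci were higher in library 1 at the various times. The part of this in the steps above was not tested, apart from the libraries left out.

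Times that are whole days apart share the hour of the light cycle. Of the times after cutting, only 24, 48 and 96 h are at such a distance from each other and from 0 h, and elsewhere time after cutting and time of day cannot be told apart. From 24 to 96 h 4 of the 5 members fell, against 11.4% of all loci. PAL5 fell by 1.01 ± 0.16 (limma adjusted p 0.000304), PAL4 by 0.99 ± 0.16 (adjusted p 0.000316), PAL2 by 0.70 ± 0.17 (adjusted p 0.00652) and PAL1 by 0.63 ± 0.20 (adjusted p 0.0264). The PAL1 call was lost without library 1 of 24 h (adjusted p 0.145), library 2 of 24 h (0.0596) or library 2 of 96 h (0.170). PAL3 differed by -0.03 ± 0.13 (adjusted p 0.888), with 142 and 132 FPKM in the libraries of 24 h and 137 and 131 in those of 96 h. Each of the other members was lower in both libraries of 96 h than in both of 24 h. Between 0.5 and 24 h, close to a day apart, PAL1 rose by 1.11 ± 0.20 (adjusted p 0.000263), PAL2 by 1.03 ± 0.17 (adjusted p 0.000153) and PAL5 by 0.85 ± 0.16 (adjusted p 0.000498), 3 of 5 against 32.0% of all loci. PAL4 differed by 0.38 (adjusted p 0.0621) and PAL3 by -0.26 (adjusted p 0.112).

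The later steps from cinnamic acid to the monolignols were followed by a list of 18 loci drawn from general knowledge of P. trichocarpa, of which 16 were measured and all 16 tested. The files annotate none of them, so they are given by identifier with no role. From 24 to 96 h 15 of the 16 fell and none rose (limma, Benjamini-Hochberg adjustment over all loci), against 11.4% of all loci lower. Their differences ran from -2.36 to -0.27 with a median of -0.87, where the median of all loci was 0.08. From 24 to 48 h 7 fell and none rose, against 2.66% of all loci lower, but between 1 and 3 of the 16 passed when any library of those 2 times was left out. From 48 to 96 h 11 fell and none rose, against 9.78% of all loci lower, with a median of -0.47 beside 0.074 for all loci, and 6 passed without library 2 of 96 h. PAL1, PAL2, PAL4 and PAL5 thus lay between -1.01 and -0.63 from 24 to 96 h, within the range of the list, and PAL3 at -0.03 lay outside it. No test was made of PAL3 against the list.

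**Figure D4:**
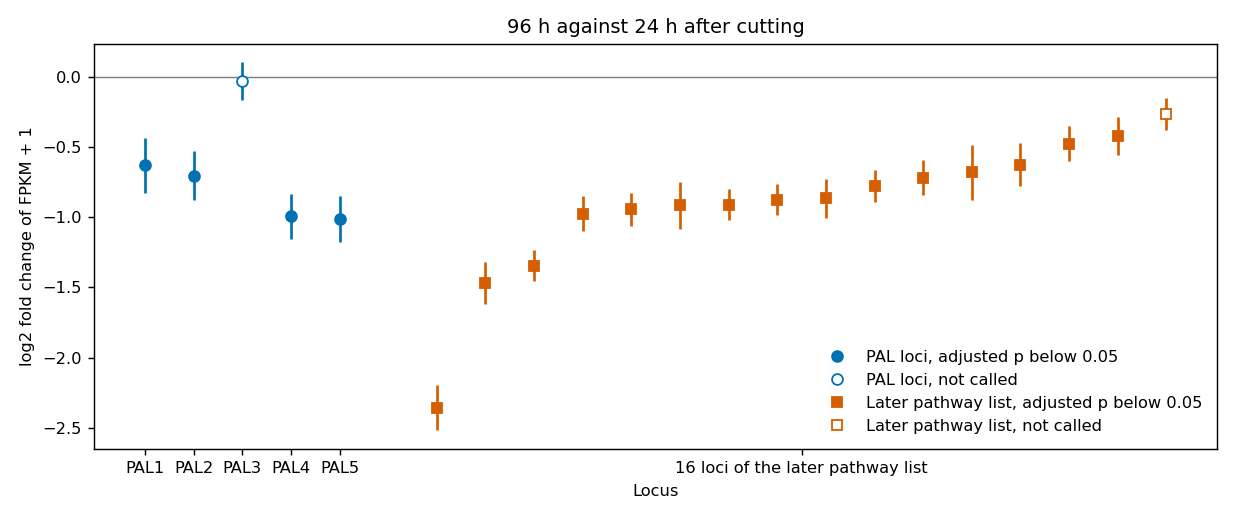
Difference in mean log2(FPKM + 1) between 96 and 24 h with its standard error for the 5 PAL loci and 16 loci listed as later steps of monolignol synthesis, filled where the limma adjusted p was under 0.05. All 16 list loci lie between -2.36 and -0.27. PAL1, PAL2, PAL4 and PAL5 lie within that range, while PAL3 lies outside it at -0.03.

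In the first hours the list did not move as one. From 0.5 to 1 h 3 of its 16 loci rose and 7 fell, against 13.9% and 30.3% of all loci, with a median of -0.25 beside -0.16 for all loci. From 1 to 2 h 8 rose and 1 fell, against 20.8% and 15.6% of all loci, with a median of 0.28 beside 0.049 for all loci. Only 4 of the 16 loci passed without library 1 of 1 h or without library 2 of 2 h. The list locus that differed most downwards between the late phase (24, 48 and 96 h, 6 libraries) and the early phase (0.5, 1 and 2 h, 6 libraries) was Potri.007G016400, at -2.28 (limma adjusted p 1.76e-11), with 85.1 and 86.4 FPKM in the libraries of 0.5 h and 8.71 and 6.14 in those of 96 h. Next was Potri.001G036900, at -0.74 (adjusted p 4.74e-06), with 231 and 323 FPKM in the libraries of 1 h and 98.1 and 102 in those of 96 h. The 2 that differed most upwards were Potri.008G136600, at 0.28 (adjusted p 0.00235), and Potri.003G059200, at 0.21 (adjusted p 0.0423). The median of all loci was 0.23 in this comparison, so the first lay little above it and the second below it. In all, 3 of the 16 list loci were higher and 7 lower, against 51.0% and 27.2% of all loci.

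Between these phases PAL3 was the member that fell. PAL3 fell by 1.21 ± 0.08 (limma adjusted p 1.97e-09), 1 of 5 against 27.2% of all loci lower. PAL5 rose by 0.69 ± 0.09 (adjusted p 8.07e-06) and PAL2 by 0.31 ± 0.10 (adjusted p 0.00978), 2 of 5 against 51.0% of all loci higher, a share near the background. The median of all loci was 0.23 in this comparison, so PAL2 stood little above it. PAL1 differed by 0.20 (adjusted p 0.128) and PAL4 by 0.15 (adjusted p 0.146). From the early to the middle phase (6 and 12 h, 4 libraries) 4 of 5 changed against 69.7% of all loci, a share near the background. PAL3 fell by 1.71 (adjusted p 3.15e-10), and 3.44% of loci were down by as much or more. PAL2, PAL4 and PAL5 rose by 0.47, 0.44 and 0.51, where the median of all loci was 0.17. In that order, 31.2%, 32.8% and 28.6% of loci were up by as much or more. From the middle to the late phase 2 of 5 changed against 54.5% of all loci, PAL3 upwards by 0.50 (adjusted p 0.000208) and PAL4 at -0.29 (adjusted p 0.0283), a call lost with PAL4 and PAL5 summed (adjusted p 0.0886) and under 5 of the 18 fits with a library left out.

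Whether members moved apart was tested on the log2 ratio of each pair, for 10 pairs and 3 pairs of phases. The test was a two-sided exact permutation over libraries with Benjamini-Hochberg adjustment over the 30, whose smallest p was 0.00216 for late against early and 0.00952 for comparisons with the middle phase. Libraries of a phase come from 2 or 3 times and are not strict replicates. The 2 libraries of a time were permuted as separate units, so each p may be too small. Of the 30 ratios 13 passed. How often ratios between other loci would pass was not tested, so this count is not a result about the family. All 4 ratios that passed from early to middle, and 4 of the 5 that passed from early to late, have PAL3 as a partner. With a library of 6 or 12 h left out, the smallest p of comparisons with the middle phase is 0.0238, and as few as 0 of their ratios passed and 4 of the 30 in all.

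PAL3 and PAL1, of one sequence group, stood in a changing ratio, with PAL3 ahead at 1 h and PAL1 ahead from 6 h on. The ratio of PAL3 to PAL1 in FPKM was 1.03 and 1.05 in the libraries of 0.5 h, 2.15 and 1.99 in those of 1 h and 0.982 and 1.02 in those of 2 h. It was 0.394 and 0.407 in the libraries of 6 h, 0.271 and 0.340 in those of 12 h, 0.390 and 0.405 in those of 24 h, 0.453 and 0.491 in those of 48 h and 0.574 and 0.635 in those of 96 h. All 6 early libraries lay above all 10 later ones. The log2 ratio of PAL1 to PAL3 was -0.37 ± 0.53 in the early phase (SD, n = 6), 1.51 ± 0.27 in the middle (SD, n = 4) and 1.04 ± 0.28 in the late (SD, n = 6). The exact permutation test gave an adjusted p of 0.0238 from early to middle and 0.0162 from early to late. From middle to late the difference of -0.47 did not pass (exact permutation, adjusted p 0.0840).

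PAL3 also parted from the second group of sequences. From early to middle the log2 ratio of PAL2 to PAL3 rose by 2.18, and those of PAL3 to PAL4 and to PAL5 moved by -2.15 and -2.22 (exact permutation, adjusted p 0.0238 each). From early to late the ratio of PAL2 to PAL3 rose by 1.53 and that of PAL3 to PAL5 fell by 1.90 (exact permutation, adjusted p 0.0162 each). The ratio of PAL3 to PAL4 differed by -1.36 with overlapping ranges (exact permutation, adjusted p 0.04995).

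The neighbours PAL4 and PAL5 kept a near-constant ratio in the first hours, and PAL5 stood higher relative to PAL4 later. PAL5 over PAL4 in FPKM was 0.140 in both libraries of 0.5 h, 0.138 and 0.140 in the libraries of 1 h, 0.132 and 0.155 in those of 2 h, 0.140 in both of 6 h and 0.149 and 0.177 in those of 12 h. It was 0.191 and 0.208 in the libraries of 24 h, 0.252 and 0.232 in those of 48 h and 0.190 and 0.193 in those of 96 h. The 6 late libraries lay above the other 10. The log2 ratio of PAL4 to PAL5 was 2.74 ± 0.07 early (SD, n = 6), 2.67 ± 0.16 in the middle (SD, n = 4) and 2.199 ± 0.16 late (SD, n = 6), with an exact permutation adjusted p of 0.0162 from early to late and 0.0238 from middle to late. PAL1 and PAL2, of different sequence groups, differed by -0.12 in log2 ratio between early and late (exact permutation, adjusted p 0.560) and by 0.18 between middle and late (adjusted p 0.0238).

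**Figure D5:**
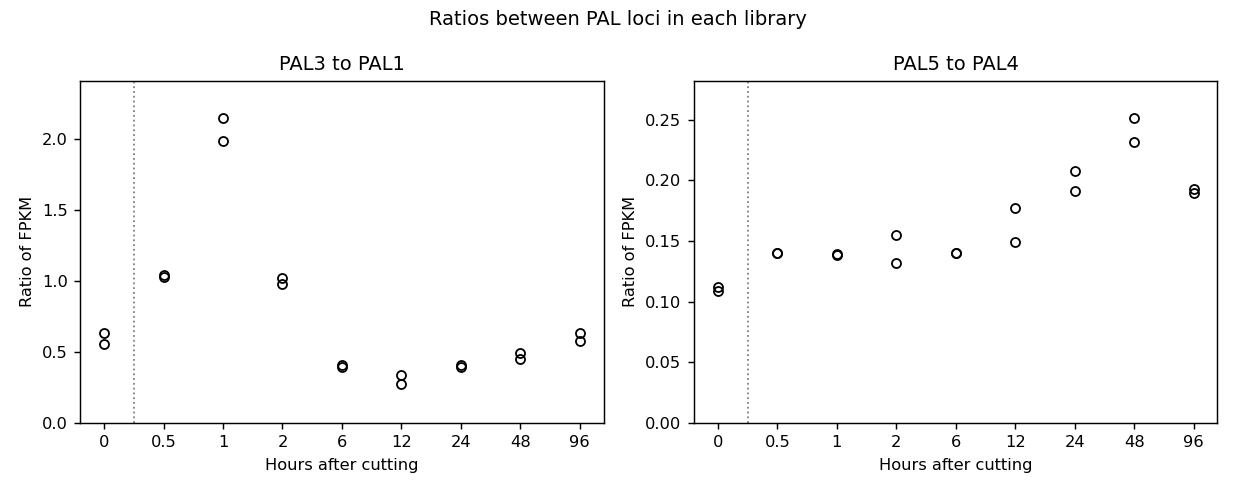
Ratio of PAL3 to PAL1 and of PAL5 to PAL4 in FPKM (vertical axes) by time after cutting in h (horizontal axis), 1 point per library. PAL3 over PAL1 was 2.15 and 1.99 at 1 h and 0.271 and 0.340 at 12 h, and PAL5 over PAL4 was highest at 48 h at 0.252 and 0.232.

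Across the 16 libraries after cutting PAL4 and PAL5 resembled each other, PAL2 resembled them less, and PAL1 resembled PAL2 more than PAL3. Pearson's r of log2(FPKM + 1) was 0.90 between PAL1 and PAL2, and PAL2 was the locus 14th most like PAL1 among 26764. It was 0.81 between PAL4 and PAL5 and 0.64 and 0.59 between PAL2 and these neighbours in that order. PAL5 was the locus 30th most like PAL4, and PAL4 the 209th most like PAL5. For PAL2 the likeness was less close, with PAL4 1124th and PAL5 1704th most like it. In turn PAL2 was 541st most like PAL4 and 3981st most like PAL5. PAL1 had an r of 0.46 with both PAL4 and PAL5. The r was 0.21 between PAL1 and PAL3, and -0.08, -0.41 and -0.55 between PAL3 and PAL2, PAL4 and PAL5. These values describe the libraries, which share time points, and no p is given. Apart from the members, the 2 loci most like the summed level were Potri.015G017800 (r 0.94) and Potri.010G020200 (r 0.93), which the files do not annotate. Potri.010G020200 had 72.2 and 66.8 FPKM in the libraries of 2 h and 8.04 and 6.55 in those of 0.5 h, and Potri.015G017800 reached no more than 5.38 FPKM.

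At 0 h PAL1 led with 203 and 156 FPKM, followed by PAL4 with 147 and 149, PAL2 with 124 and 123, PAL3 with 113 and 99.6 and PAL5 with 16.0 and 16.7. Neighbours in this order did not overlap, although the means of PAL1 and PAL4, 179.5 ± 32.6 and 148 ± 1.67 FPKM (SD, n = 2), differed by less than the spread of PAL1. The sum was 602 and 544 FPKM. At 0.5 h 2 of 5 members differed from 0 h against 49.7% of all loci, PAL3 by 0.63 (limma adjusted p 0.00134) and PAL2 by -0.94 (adjusted p 0.000411). The second transcript of PAL2 was at 0 in both tables of 0 h and between 18.4 and 84.4 FPKM in all later ones, so its level at 0 h rests on the first transcript.

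The count of members that differed from 0 h by limma with Benjamini-Hochberg adjustment is given beside the share of all loci. It was 4 of 5 at 1 h against 67.5% of all loci, 4 at 2 h against 68.8%, 1 at 6 h against 64.6% and 2 at 12 h against 61.7%. It was 3 at 24 h against 58.4%, 4 at 48 h against 62.9% and 3 at 96 h against 65.0%. PAL3 was above 0 h by 2.01 at 1 h (adjusted p 7.57e-09) and by 2.11 at 2 h (adjusted p 4.29e-09), and PAL1 by 1.37 at 2 h. At 1 h PAL2 was below 0 h by a difference of -1.33, PAL4 by -1.06 and PAL5 by -0.68. At 96 h PAL4 was below it at -1.01 and PAL2 at -0.62. PAL2 at 2 h differed by 0.57, a call lost with quantile normalization (0.38, limma adjusted p 0.0716). Its value turned to -0.28 (adjusted p 0.128) with the leading transcript alone. With that transcript PAL2 was also further below 0 h, at -1.78 for 0.5 h, -2.21 for 1 h and -1.45 for 96 h. It then passed downwards at 6 h (-0.93, adjusted p 0.000128), 12 h (-0.94, adjusted p 0.000127), 24 h (-0.76, adjusted p 0.000822) and 48 h (-1.05, adjusted p 4.46e-05), where the summed level had not passed. The leading transcript alone leaves out the second one, listed above 0 only after 0 h. These values thus set a part of the later PAL2 level against all of its 0 h level, and are not read as falls of PAL2. The PAL1 call at 6 h (0.66) was lost with quantile normalization and without library 2 of 0 h. Calls of PAL1 at 12 and 48 h (0.63 and 0.76) were also each lost under at least 1 alternative. So were those of PAL4 at 2 and 48 h (-0.47 and -0.44). The PAL3 calls at 12, 24, 48 and 96 h (-0.34, 0.36, 0.42 and 0.33) were each lost under at least 1 alternative. With a library left out, the count was 0 to 1 at 6 h (lower without library 2 of 0 h), 1 to 2 at 12 h (lower without either library of 0 h or library 2 of 12 h) and 1 to 4 at 48 h (lower without library 2 of 0 h or library 1 of 48 h).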

How the data were processed

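The authors deposited 1 table of FPKM per library; the header names FPKM in the 2 tables of 0 h, per the file headers, and the other 16 headers hold only a library code, so their unit was read from the values. Per the submitters' processing notes, Bowtie2 2.2.3 and HISAT2 2.1.0 were used, with no role stated. Which genome build, annotation and counting tool lie behind the values is not given in the sources used here. Each table ends after 65535 transcripts of 36385 loci, and loci beyond that point were not analysed here.

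FPKM of all transcripts of a locus were summed. Loci with at least 1 FPKM in at least 2 libraries were kept, and log2(FPKM + 1) was fitted with 1 mean per time point to all 18 libraries in limma 3.58.1 (R 4.3.3), with intensity trend and robust variances. A fold change on this scale understates the change of low loci. Tests were two-sided, with Benjamini-Hochberg adjustment within each comparison and a threshold of 0.05. Ratios between members were compared with exact permutation tests in scipy 1.17.1. Read totals came from the FPKM steps of the later libraries, where 60197 of 60197 transcripts searched gave a length with near-whole reads. The tolerance was 0.01 reads plus a small share of the count. Some fractions and multiples of a total also gave near-whole lengths, so the totals rest on a search window that leaves these out. The fit was tested on simulated data.

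The members, the list of later pathway loci and the tests were chosen with earlier results of these data known. The loci named are the 5 members, the 2 most like their sum, and from the list at most 2 in each direction with the largest change between late and early phase. Alternatives were a pseudocount of 0.1, no filter, quantile normalization, only the libraries compared, no 0 h libraries, the leading transcript alone, limma without trend and robust variances, limma-voom on recovered reads, PAL4 and PAL5 summed, and each library left out in turn. The same alternatives on the list of later loci were added after the data were seen.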

Additional observations from a re-analysis of the deposited data

How the results depend on the processing

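Of the values of single members, 105 of 105 kept direction and call with a pseudocount of 0.1, 104 of 105 with no filter, 65 of 65 without the 0 h libraries, 63 of 65 with limma-voom (the other 2 gained a call), 92 of 105 with quantile normalization, 98 of 105 with the leading transcript alone, 103 of 105 without trend and robust variances, 93 of 100 with only the libraries compared, 16 of 21 with PAL4 and PAL5 summed and 1805 of 1890 with 1 library left out. With 1 library left out, a time has a lone library, which is assumed to vary like the others.

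The number of members changed from 6 to 12 h was 0 with only the libraries compared. Against 0 h it was 0 at 6 h with quantile normalization and 2 with the leading transcript, and at 12 h 0 with only the libraries compared and 1 without trend and robust variances. With 1 library left out it ran from 2 to 4 for 2 against 1 h, 3 to 5 for 6 against 2 h, 0 to 2 for 12 against 6 h, 1 to 3 for 24 against 12 h, 1 to 3 for 96 against 48 h, 0 to 1 for 6 against 0 h, 1 to 2 for 12 against 0 h, 1 to 4 for 48 against 0 h and 1 to 3 for late against middle. The count of list loci ran from 4 to 9 for 2 against 1 h, 1 to 7 for 48 against 24 h and 6 to 12 for 96 against 48 h. The count of ratios ran from 0 to 4 for middle against early, 0 to 5 for late against middle and 4 to 13 in all; without 1 middle library the smallest possible p is 0.0238, which by construction leaves fewer calls. The cause of the other changes was not tested.

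Directions turned only in values that had not passed, except where said. Against 0 h, with quantile normalization PAL3 at 6 h was -0.10 and PAL2 at 24 h -0.16; with the leading transcript PAL2 at 24 h was -0.76, which passed (adjusted p 0.000822), and at 2 h, where the main value had passed, -0.28; with PAL4 and PAL5 summed PAL4 at 24 h was 0.094. The values of PAL2 with the leading transcript leave out its second transcript, which was at 0 in both libraries of 0 h. PAL3 from 24 to 96 h was 0.062 with quantile normalization. With 1 library left out the values that turned ran for PAL1 from -0.31 to 0.24 (12 against 6 h), -0.43 to 0.053 (48 against 24 h), -0.35 to 0.020 (0.5 against 0 h) and -0.11 to 0.17 (late against middle); for PAL2 from -0.33 to 0.24 (12 against 6 h), -0.075 to 0.49 (24 against 12 h) and -0.40 to 0.16 (12 against 0 h); for PAL3 from -0.052 to 0.27 (2 against 1 h), -0.13 to 0.24 (48 against 24 h), -0.27 to 0.095 (96 against 48 h), -0.00043 to 0.18 (6 against 0 h) and -0.085 to 0.021 (96 against 24 h); for PAL4 from -0.49 to 0.048 (12 against 6 h) and -0.19 to 0.019 (6 against 0 h); and for PAL5 from -0.15 to 0.13 (12 against 6 h), -0.33 to 0.040 (48 against 24 h), -0.14 to 0.038 (0.5 against 0 h) and -0.35 to 0.14 (2 against 0 h). No paired analysis was possible because the labels give no number that ties libraries of different times.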

Other observations

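Among the 26765 loci tested, the members' places in the order of levels differed. Over the 18 libraries the percentile of level within a library was 97.9 to 99.7 for PAL1, 94.9 to 99.7 for PAL3, 94.1 to 98.2 for PAL4, 89.8 to 98.5 for PAL2 and 60.4 to 85.1 for PAL5.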
